A study of Mus musculus with 12 samples.

Results

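Transcript levels of 10 transcription factor genes of the mammary epithelium (Elf5, Stat5a, Gata3, Foxa1, Ehf, Elf3, Grhl2, Tfap2c, Sox9 and Sox10) were followed in mouse mammary tissue and mammary tumors. They were taken by name, as 10 of the 23301 gene names found in the expression tables of both experiments of the series, and all 10 passed the filter on low values in each experiment. RNA-seq of poly-A RNA was carried out in 12 samples, with 3 in each of 4 groups. Normal samples were mammary glands of untreated wild-type FVB females, and each replicate pooled the abdominal and inguinal glands of 3 mice. Tumor samples were thoracic gland tumors of untreated MMTV-PyVT females, each from a single mouse. The MMTV-PyVT line was bred on the FVB strain as well. The DMSO and C646 groups were tumors of MMTV-PyVT females, the largest of each mouse, after injection of the solvent or of C646, an inhibitor of the histone acetyltransferase p300. The labels give 1 mg/kg for both injections and an age of 12 weeks for all 12 samples. MMTV-PyVT mice carry the polyoma virus middle T antigen, heterozygous, under the mouse mammary tumor virus promoter, which is active mainly in mammary epithelium, so all 9 tumors share this oncogene and the 3 Normal samples lack it. Normal and Tumor also differed in gland position and in the number of mice per replicate, and these cannot be told apart.

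The mammary epithelium is a bilayer of luminal cells, which either sense hormones or secrete milk, and contractile myoepithelial cells. Elf5, together with Stat5a downstream of the prolactin receptor, drives the secretory alveolar branch, while Gata3 and Foxa1 act with the estrogen receptor in the hormone-sensing branch. Ehf, Elf3 and Grhl2 are general epithelial factors that keep junction and differentiation genes on, and Tfap2c, Sox9 and Sox10 are associated with progenitor and luminal states.

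On GRCm38, the same build as mm10, the protein-coding loci were placed with GENCODE vM21. Ehf (chr2:103263433-103303278, minus strand) and Elf5 (chr2:103411688-103450989, plus strand) are neighbors separated by 108409 bases. Gata3 (chr2:9857078-9890034, minus) and Tfap2c (chr2:172549593-172558622, plus) lie on the same chromosome. Sox9 (chr11:112782224-112787760, plus) shares its chromosome with Stat5a (chr11:100859351-100885169, plus), which lies 8626 bases from its paralog Stat5b. Grhl2 (chr15:37233036-37363569, plus) and Sox10 (chr15:79154908-79165240, minus) are both on chromosome 15. Foxa1 is at chr12:57540628-57546916 (minus) and Elf3 at chr1:135253575-135258568 (minus).

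RefSeq promoter windows (250 bases before to 50 after a transcript start, GRCm38.p6) were matched by symbol for 5 of the 10 genes, in 7 windows, while Ehf, Grhl2, Tfap2c, Sox9 and Sox10 had none in the table used. Windows of 3 genes are printed because these genes mark the extremes described here, the member with the largest rise in tumors (Elf5), the member that fell (Foxa1) and its hormone-sensing partner that rose (Gata3). Each is the part of the 250 upstream bases that no annotated exon of the gene covers, printed 5′ to 3′ on the strand of the gene, with motif matches in capitals. All 3 stretches lie within the bounds of their own genes, outside annotated exons. The Foxa1 stretch is chr12:57546122-57546361 (minus strand), that of Gata3 is chr2:9878601-9878850 (minus) and that of Elf5 is chr2:103423818-103424061 (plus).
Foxa1: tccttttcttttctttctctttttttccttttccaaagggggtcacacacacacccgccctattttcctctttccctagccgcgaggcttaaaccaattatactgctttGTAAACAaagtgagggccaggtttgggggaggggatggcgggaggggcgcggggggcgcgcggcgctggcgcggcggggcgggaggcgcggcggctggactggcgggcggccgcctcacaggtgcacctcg
Gata3: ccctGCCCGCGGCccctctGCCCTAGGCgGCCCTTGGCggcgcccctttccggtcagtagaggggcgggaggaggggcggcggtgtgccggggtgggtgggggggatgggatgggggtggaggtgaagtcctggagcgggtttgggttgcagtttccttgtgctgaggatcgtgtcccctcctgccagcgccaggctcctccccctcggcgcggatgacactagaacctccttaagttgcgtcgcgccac
Elf5: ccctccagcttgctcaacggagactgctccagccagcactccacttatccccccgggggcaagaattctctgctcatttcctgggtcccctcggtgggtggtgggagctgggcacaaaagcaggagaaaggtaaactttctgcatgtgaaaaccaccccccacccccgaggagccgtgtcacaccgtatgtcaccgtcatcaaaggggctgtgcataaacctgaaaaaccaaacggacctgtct
On both strands 7 motifs were searched. The ETS motif was spelled CCGGAAG. The motif for GATA factors was AGATAAG. Grainyhead factors were given as AACCGG and AP-2 factors as GCCNNNGGC. The letters for STAT factors were TTCNNNGAA. For forkhead factors they were TGTTTAC, and for SOX factors AACAAT. The Foxa1 stretch held a forkhead match on the opposite strand, read here as GTAAACA from -141 to -135, and 3.65% of 32851 mouse promoter windows held that motif. The Gata3 stretch held 3 AP-2 matches, starting at -246, -231 and -221, and 16.6% of all windows held at least 1. The Elf5 stretch held none of the 7 motifs. The Elf3 window held a grainyhead match from -68 to -63, inside an annotated exon, a motif present in 6.83% of all windows. The STAT, ETS, GATA and SOX motifs matched in none of the 7 windows, against 8.30%, 8.86%, 3.04% and 10.7% of all windows. These are letter matches and were not tested as binding sites.

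Expression was deposited as FPKM, fragments per kilobase scaled to the mapped fragments of each library, so levels can be set beside each other between genes. Sequencing depth in reads was not used here. The libraries were not strand-specific, and exons of Gata3, Elf3, Grhl2 and Stat5a overlap those of other genes over 1.01% to 7.31% of their exon bases, where reads cannot be told apart. The tissue labels were checked with lists of cell type markers. The summed FPKM of 8 general epithelial genes (Epcam, Krt7, Krt8, Krt18, Krt19, Spint1, Spint2 and St14) lay between 551 and 1093 in Normal and between 3223 and 4789 in Tumor. Adipocyte markers summed to between 26519 and 33331 in Normal and to between 124 and 2496 in Tumor, and T cell markers to between 237 and 332 and between 0.574 and 2.21. The B cell markers Ms4a1 and Cr2 were listed at 0 in all 9 tumors. Skeletal muscle markers went the other way, from 10.8 to 82.6 in Normal and from 1549 to 4384 in Tumor. In such bulk tissue, fewer cells of a type and less RNA per cell cannot be told apart.

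**Figure D1:**
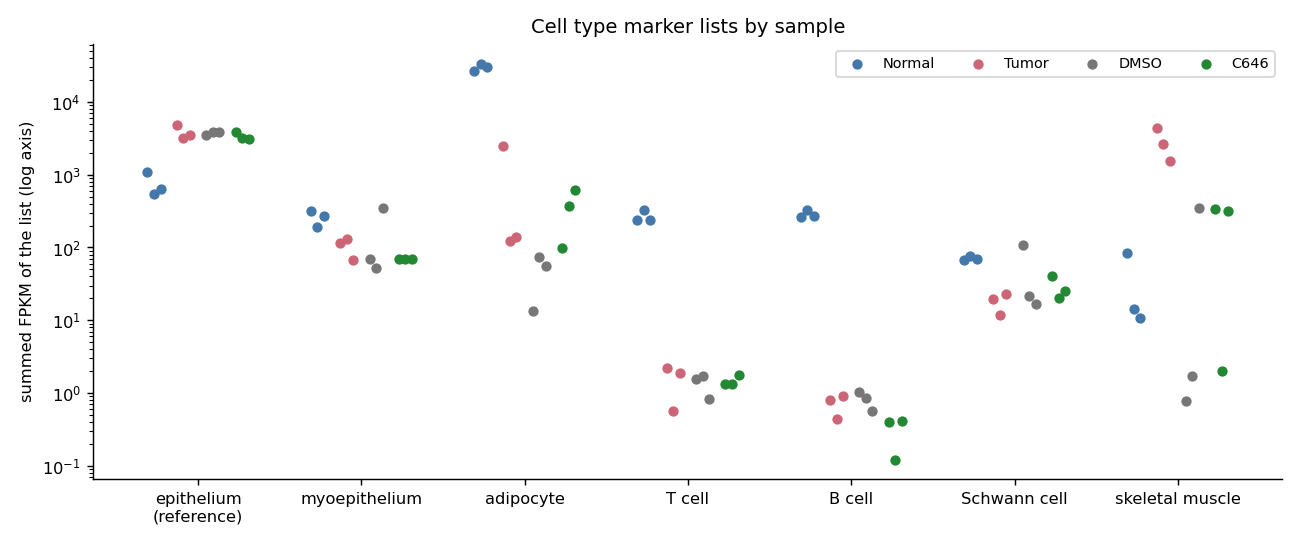
Summed FPKM of each cell type marker list (log axis) by sample, with 1 point per sample and 3 samples per group. Epithelial genes sit between 551 and 1093 in Normal and between 3069 and 4789 in the tumor groups, while adipocyte, T cell and B cell lists are lower in all tumors.

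Tumor was first compared with Normal, which asks how the transcription factor set of the gland differs in the tumors. The comparison used limma on log2(FPKM + 0.03125), with Benjamini-Hochberg adjustment over 13031 genes and a threshold of 0.05. Of the 10 factors, 8 rose in Tumor (Elf5, Tfap2c, Sox10, Sox9, Ehf, Grhl2, Gata3 and Elf3), Foxa1 fell, and Stat5a did not pass the test. Among all genes tested, 28.8% were higher and 31.7% lower. The median log2 difference was 2.45 over the 10 factors and -0.02 over all genes. Groups did not overlap for the 8 genes that rose or for Foxa1, as for 33.1% (higher) and 35.8% (lower) of all genes. The counts of 8 and 1 were the same when each of the 6 samples was left out in turn.

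**Figure D2:**
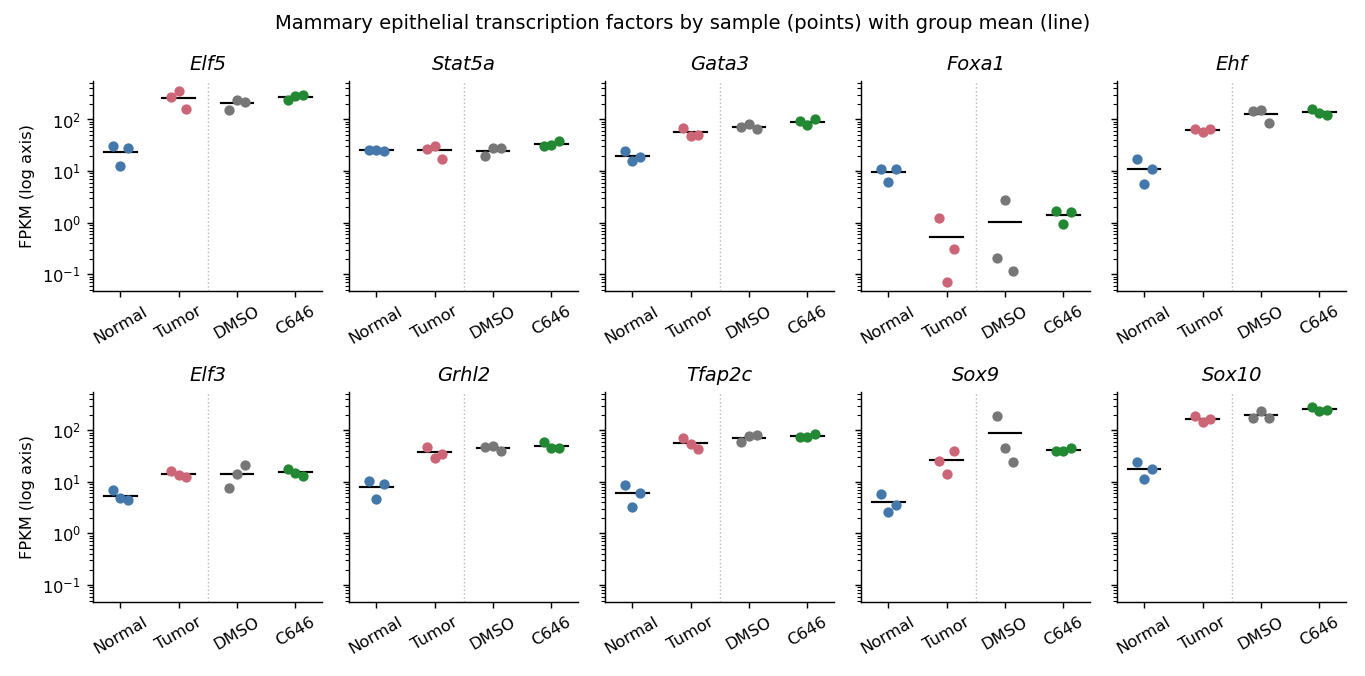
FPKM (log axis) of the 10 transcription factors by sample, with 1 point per sample and a line at the mean of the 3 samples of each group. The dotted line separates the 2 experiments, whose tables were made separately. Normal lies below all tumor groups for 8 genes, Foxa1 shows the opposite order, and Stat5a stays near 25 FPKM in Normal, Tumor and DMSO.

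Elf5, an ETS factor that specifies milk-secreting alveolar cells, showed the largest rise. Its FPKM was 31.2, 12.7 and 27.7 in Normal replicates 1 to 3 and 267, 362 and 162 in Tumor replicates 1 to 3. All tumors were far above all Normal samples. The log2 difference was 3.49 ± 0.41 (SE, adjusted p = 3.45e-04), which is 11.3-fold on this scale. By mean FPKM, Elf5 ranked 3606 among the genes of Normal and 364 among those of Tumor.

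Stat5a, the prolactin-activated signal transducer that works with Elf5, did not follow it. Its values were 26.1, 25.5 and 24.8 in Normal and 26.9, 30.9 and 17.4 in Tumor, so the groups overlapped. The log2 difference was -0.06 (95% interval -0.57 to 0.45, adjusted p = 0.818), and it was 0.18 without Tumor replicate 3. Stat5a was the steadiest of the 10 factors among Normal samples, with a highest value 1.05 times the lowest, against 1.54 to 2.98 times for the others. The paralog Stat5b had 20.9 ± 1.30 FPKM (SD, n = 3) in Normal and 16.5 ± 1.54 in Tumor, a log2 difference of -0.34 ± 0.13 (SE) that did not pass the test (adjusted p = 0.0565). The kinase Jak2, which phosphorylates Stat5 at the prolactin receptor, fell from 20.8 ± 1.35 to 11.3 ± 0.556 FPKM (adjusted p = 8.65e-04). The receptor gene Prlr had 6.53 ± 1.64 and 4.36 ± 0.911 FPKM (adjusted p = 0.0858). Adipocyte and T cell markers were lower in the same tumors, and the part of such cells in the levels of Stat5a, Stat5b and Jak2 was not tested.

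Milk genes, which Elf5 and Stat5 control, were higher or not called. Of 10 genes, 5 rose and 0 fell, with a median log2 difference of 2.98. Wap, whey acidic protein, rose from 1.19 ± 1.32 to 1254 ± 1519 FPKM, and Lalba, the lactose synthase subunit, from 24.5 ± 25.4 to 2179 ± 770.0. The casein genes Csn3 and Csn1s2b rose from 161 ± 60.5 to 12322 ± 3108 FPKM and from 0.297 ± 0.288 to 13.1 ± 12.2. Tumors spread widely for Wap and Csn1s2b. Csn1s1, Csn1s2a and Csn2 overlapped between the groups. Glycam1 was the 1 gene with a difference below 0 (1085 ± 195 FPKM in Normal and 869 ± 1473 in Tumor, log2 difference -4.12, adjusted p = 0.135). T cell and B cell markers were higher in Normal, and the part of tissue other than epithelium in the Glycam1 level was not tested. Of 5 genes linked to Stat5 signaling, most of them feedback inhibitors, Socs2 rose (log2 difference 0.81, adjusted p = 0.0324). Socs1 fell (-2.39, adjusted p = 0.00154) and 3 were not called.

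Gata3, a zinc finger factor needed to keep luminal cells differentiated, was 24.3, 15.6 and 18.9 FPKM in Normal and 69.6, 48.2 and 51.0 in Tumor. All tumors were above all Normal samples, with a log2 difference of 1.52 ± 0.21 (SE, adjusted p = 7.85e-04), or 2.87-fold. Foxa1, a forkhead pioneer factor that opens chromatin for the estrogen receptor, moved in the opposite direction. It had 11.2, 6.27 and 11.2 FPKM in Normal but 1.21, 0.0727 and 0.312 in Tumor, where the highest was 16.7 times the lowest. The highest was Tumor replicate 1, whose adipocyte markers summed to 2496 FPKM, against 124 and 140 in the others. The part of such tissue in its Foxa1 level was not tested. The log2 difference of Foxa1 was -4.71 ± 0.82 (SE, adjusted p = 0.00214). Its size depended on the pseudocount because the tumor values were near 0, and with a pseudocount of 1 it was -2.81. The ratio of group means was 17.9 in favor of Normal.

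Other hormone-sensing genes that passed the test fell, as Foxa1 did and Gata3 did not. Esr1, the estrogen receptor, fell from 7.54 ± 1.11 to 1.24 ± 0.361 FPKM (log2 difference -2.60, adjusted p = 1.59e-04). Of 6 genes tested from a hormone-sensing list, 0 rose and 5 fell, with a median log2 difference of -3.32. Tnfsf11, the paracrine RANK ligand, had 3.56 ± 0.648 FPKM in Normal and 0.0163 ± 0.0283 in Tumor. Areg, the growth factor amphiregulin, fell from 17.1 ± 4.57 to 1.45 ± 0.500 FPKM, Wnt4 from 3.18 ± 0.592 to 0.354 ± 0.131, and Cited1, an estrogen receptor coactivator, from 62.8 ± 10.6 to 5.71 ± 7.47. The fifth was Ly6a, a surface antigen that other cell types also express. Markers of T cells, B cells and adipocytes fell in the same tumors, and the part of such cells in all these falls was not tested. Pgr, the progesterone receptor, was under 1 FPKM in mean in both groups and was not tested.

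Ehf and Elf3 belong with Elf5 to the epithelium-specific ETS factors. Ehf was 16.8, 5.62 and 10.9 FPKM in Normal and 65.9, 58.4 and 66.7 in Tumor, and its log2 difference was 2.65 ± 0.36 (SE, adjusted p = 6.79e-04). Normal samples varied by up to 2.98 times but tumors by only 1.14 times. Elf3 rose less, from 6.95, 4.79 and 4.52 FPKM in Normal to 15.9, 13.4 and 12.6 in Tumor, with a log2 difference of 1.38 ± 0.21 (SE, adjusted p = 0.00104). Of 3 more distant Elf genes, Elf4 fell from 10.2 ± 0.611 to 0.744 ± 0.113 FPKM and Elf1 from 21.1 ± 1.16 to 9.30 ± 3.73, while Elf2 had 15.6 ± 0.323 and 15.6 ± 1.24 FPKM and a log2 difference of -0.00 ± 0.13 (SE, adjusted p = 0.995). Elf4 and Elf1 are also expressed in lymphocytes, whose markers fell in the same samples, and the part of this in their difference was not tested.

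Grhl2, a grainyhead factor that activates epithelial junction genes, had FPKM of 10.4, 4.74 and 8.94 in Normal and 47.4, 29.5 and 34.4 in Tumor. No sample of one group reached the other, and the log2 difference was 2.25 ± 0.32 (SE, adjusted p = 8.26e-04). Its FPKM is the sum of the rows that carried its name in the files. The paralog Grhl1 rose from 5.92 ± 2.95 to 25.1 ± 3.69 FPKM (4.25 times by the means, adjusted p = 0.00158). Grhl3, the paralog of the skin barrier, was low, at 0.187, 0 and 0.0312 FPKM in Normal and 0.418, 2.03 and 1.04 in Tumor, and was not tested. Of 11 junction and epithelial splicing genes, 10 rose and 0 fell, with a median log2 difference of 3.03. The tight junction genes Cldn3 and Cldn7 rose from 58.7 ± 24.3 to 653 ± 116 FPKM and from 26.6 ± 9.83 to 281 ± 30.9. Rab25, an epithelial trafficking GTPase, rose from 18.6 ± 5.87 to 170.2 ± 32.1 FPKM, and Tmem54 from 2.27 ± 1.58 to 32.3 ± 3.96.

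Tfap2c, which encodes the AP-2 gamma factor, had 8.51, 3.21 and 6.11 FPKM in Normal and 69.9, 55.1 and 43.3 in Tumor. It rose 9.94-fold, with a log2 difference of 3.31 ± 0.36 (SE, adjusted p = 2.43e-04). Of its paralogs, Tfap2b had 3.71, 2.40 and 3.29 FPKM in Normal and 12.6, 3.26 and 19.3 in Tumor, where replicate 2 stayed at the Normal level, and did not pass the test (adjusted p = 0.0555). Tfap2a stood only in a row joined with another gene name in the Normal and Tumor tables and was not analysed there.

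Sox10 and Sox9 are related SOX factors, found in mammary progenitor and stem-like states and, outside the epithelium, in Schwann cells (Sox10) and cartilage (Sox9). Sox10 was 24.5, 11.4 and 17.7 FPKM in Normal and 185, 143 and 166 in Tumor. The log2 difference of 3.26 ± 0.27 (SE, adjusted p = 8.75e-05) had the smallest adjusted p of the 10 factors. Sox9 was 5.84, 2.62 and 3.52 FPKM in Normal and 25.1, 14.4 and 40.0 in Tumor, with a log2 difference of 2.68 ± 0.42 (SE, adjusted p = 0.00133). The tumors differed among themselves 2.79 times in Sox9 and 1.30 times in Sox10. Schwann cell markers summed to between 67.5 and 77.3 FPKM in Normal and between 11.7 and 23.3 in Tumor. Of the 6 tested, 0 rose and 5 fell. The cells that the Sox10 transcripts came from were not tested. Myoepithelial markers split, with Krt14 higher (35.5 ± 12.0 to 103 ± 24.5 FPKM), 5 other genes lower and 2 not called.

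Among 22 tested genes of 25 other epithelial transcription factors, 11 rose and 7 fell, with a median log2 difference of 1.16. The largest rises were in Spdef, an ETS factor of secretory epithelia (1.55 ± 0.775 to 14.8 ± 9.01 FPKM), Xbp1, which expands the secretory machinery (76.2 ± 12.5 to 626 ± 20.6), Ovol1, a zinc finger repressor (0.601 ± 0.362 to 3.91 ± 0.857), and Cebpb, a bZIP factor of alveolar development (120.2 ± 23.7 to 629 ± 96.3). The largest falls were in Id4 (8.60 ± 3.05 to 0.615 ± 0.310 FPKM), Elf4, Tbx3, a T-box factor of the hormone-sensing lineage (3.10 ± 0.524 to 0.357 ± 0.280), and Esr1. Of 10 partners and upstream signals tested, Cited2 (23.9 ± 1.40 to 143 ± 17.5 FPKM) and Lmo4 (58.3 ± 2.50 to 189.6 ± 40.2) rose, and Cited1, Jak2 and Ep300 fell. Ep300, the gene of the acetyltransferase p300 that C646 inhibits, had 8.65, 8.57 and 7.59 FPKM in Normal and 3.06, 3.74 and 3.19 in Tumor, with a log2 difference of -1.31 ± 0.16 (SE, adjusted p = 4.66e-04). These are RNA levels of bulk tissue, and the authors reported more p300 protein in tumors by western blot.

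**Figure D3:**
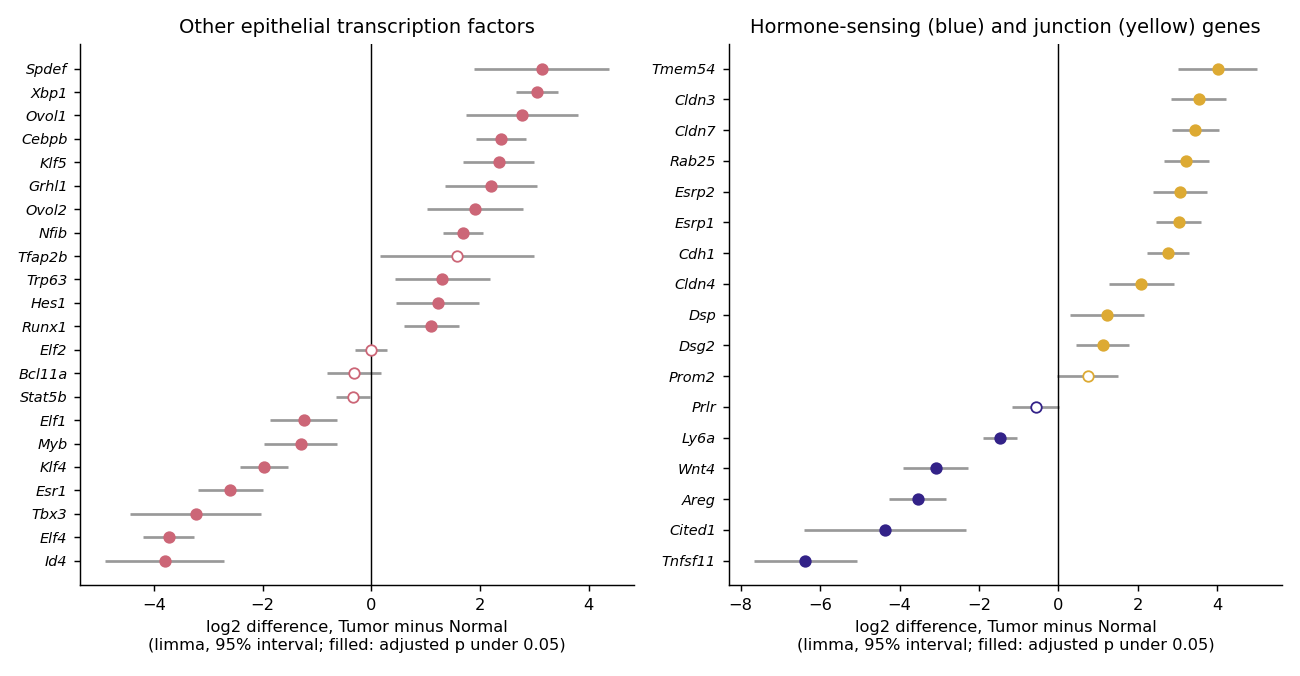
Log2 differences, Tumor minus Normal, with 95% intervals from limma, for other epithelial transcription factors (left) and for hormone-sensing and junction genes (right). Filled points passed the test. Among the transcription factors 11 rose and 7 fell, 10 junction genes rose, and 5 hormone-sensing genes fell.

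Since all general epithelial genes but Krt19 rose in Tumor as well, each factor was also set against them, by subtracting in every sample the mean log2 value of the 8 genes, which was 2.35 higher in Tumor. Against this reference 3 factors were higher in every tumor than in every Normal sample, Elf5 by 1.14, Tfap2c by 0.96 and Sox10 by 0.91 on the log2 scale. Of all 13031 genes, 2.66% were above the reference in this way and 89.2% below it. Another 4 factors were below it without overlap, Gata3 by a difference of -0.83, Elf3 by -0.97, Stat5a by -2.41 and Foxa1 by -7.06. Each of these 7 differences had p = 0.1 in the two-sided exact permutation test, the smallest that 3 samples against 3 allow. Ehf (0.30), Sox9 (0.33) and Grhl2 (-0.10) overlapped between the groups, and their sign changed with the reference chosen. With Epcam alone as the reference 1 factor was above it without overlap, and with the median of the 8 genes 5 were. The 7 factors without overlap kept their sign under all 3 references. Subtracting the reference does not remove transcripts of other cell types. T cell and adipocyte markers were higher in Normal, and the part of such cells in these differences was not tested.

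Relative to the epithelial genes, Elf5 was -1.41, -1.74 and -0.89 in Normal and -0.36, 0.50 and -0.75 in Tumor, so the gap between the groups was narrow. Sox10 was separated more clearly, at -1.76, -1.89 and -1.53 in Normal and -0.89, -0.85 and -0.71 in Tumor. Gata3, whose FPKM had risen, went from -1.77, -1.44 and -1.44 to -2.30, -2.41 and -2.42. The spread among the 3 Normal samples was smaller on this relative scale for 9 of the 10 factors, all but Stat5a, and the median SD went from 0.566 to 0.331 on the log2 scale. It was smaller for 7 of 10 in Tumor (0.347 to 0.205), but only for 4 in DMSO (0.324 to 0.330) and 5 in C646 (0.181 to 0.187).

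**Figure D4:**
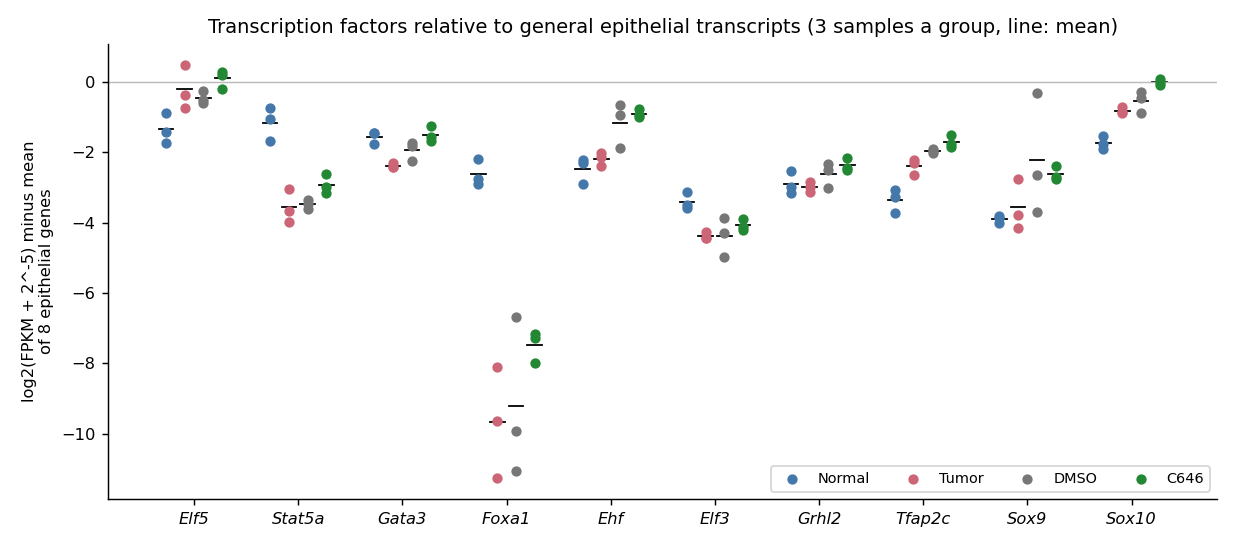
Level of each transcription factor relative to the mean of 8 epithelial genes (log2 scale) by sample, with a line at the mean of the 3 samples of each group. Elf5, Tfap2c and Sox10 lie higher in Tumor than in Normal, Gata3, Elf3, Stat5a and Foxa1 lie lower, and Ehf, Grhl2 and Sox9 overlap.

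The second comparison, C646 against DMSO, asks which of the factors differed between tumors after the p300 inhibitor and after the solvent. No factor passed the test, and none of the 12083 genes tested did in limma with Benjamini-Hochberg adjustment (0.0% higher and 0.0% lower), while 384 had an unadjusted p under 0.05. The adjusted p was 0.990 for each of the 10 factors. Differences were above 0 for 9 of the 10, with a median of 0.26 on the log2 scale over the factors and -0.01 over all genes. For 2 factors, Sox10 and Stat5a, every C646 tumor was above every DMSO tumor, a separation that 4.04% of all genes showed upward and 4.52% downward. No factor separated downward.

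Sox10 was 173, 234 and 171 FPKM in DMSO and 285, 239.7 and 243 in C646. The groups were close but did not touch, and the log2 difference was 0.42 (95% interval 0.02 to 0.82, unadjusted p = 0.0405). Stat5a had 19.2, 27.7 and 28.2 FPKM in DMSO and 30.6, 31.9 and 39.0 in C646, with a log2 difference of 0.45 (interval -0.00 to 0.90). Its paralog Stat5b was likewise higher in every C646 tumor, at 19.5, 25.7 and 19.8 against 35.0, 28.1 and 32.4 FPKM, with a log2 difference of 0.56 (interval 0.18 to 0.94, adjusted p = 0.990). Elf5 was 155, 239 and 220.4 FPKM in DMSO and 237, 290.2 and 295 in C646, and the groups overlapped in a single pair of values, DMSO replicate 2 and C646 replicate 1. The log2 difference of Elf5 was 0.44 (interval -0.03 to 0.91), and that of Gata3 was 0.33 (interval -0.01 to 0.67), with 70.1, 81.0 and 65.6 FPKM in DMSO and 92.0, 79.3 and 100.9 in C646.

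Tfap2c had 58.2, 76.1 and 79.4 FPKM in DMSO and 75.1, 74.3 and 84.7 in C646, a log2 difference of 0.14 (interval -0.22 to 0.50). Grhl2 had 47.0, 50.4 and 38.7 against 60.2, 44.6 and 44.7 FPKM, a difference of 0.13 (interval -0.28 to 0.54). Both intervals end well within 1 log2 unit of 0. Ehf was 149, 150.1 and 84.7 FPKM in DMSO and 158, 132 and 121 in C646, with a difference of 0.14 (interval -0.44 to 0.72). Elf3 differed 2.89 times among DMSO tumors alone (7.45, 14.4 and 21.5 FPKM) and was 18.0, 14.5 and 12.9 FPKM in C646, so its interval was wide (0.18, from -0.70 to 1.06).

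Foxa1 and Sox9 were the least settled. Foxa1 stayed low, at 0.211, 2.74 and 0.114 FPKM in DMSO and 1.71, 0.962 and 1.64 in C646, and its log2 difference of 1.63 had an interval from -1.01 to 4.26. Sox9 was 190.0, 45.6 and 24.1 FPKM in DMSO and 39.5, 39.1 and 45.8 in C646. The log2 difference was -0.52 (interval -2.12 to 1.08), and without DMSO replicate 1, the sample at 190.0, it was 0.32. That tumor also had the highest sum of the Schwann cell list of the 9 tumors (107 FPKM), of which S100b made up 92.2. Its Sox10, at 173 FPKM, lay between those of the other DMSO tumors (234 and 171). The source of its Sox9 level was not tested. The values of Ehf, Elf3 and Grhl2 were likewise so close to 0 that leaving out a single tumor turned their sign.

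Relative to the epithelial genes, whose mean log2 value differed by -0.12 between C646 and DMSO, 5 factors were higher in every C646 tumor, Gata3 (0.44), Elf5 (0.55), Tfap2c (0.26), Sox10 (0.54) and Stat5a (0.56), and 0 were lower. Of all genes 8.16% were higher and 0.703% lower in this way. With Epcam alone as reference the count was 2 and with the median of the 8 genes it was 3. Adipocyte markers summed to between 13.5 and 73.8 FPKM in DMSO and between 96.9 and 616 in C646, and all 7 tested had differences above 0, without passing the test. Skeletal muscle markers stood apart by tumor rather than by group, at 347 FPKM in DMSO replicate 3 and 342 and 312 in C646 replicates 1 and 3, against 0.774, 1.69 and 1.996 in the other 3 tumors, and all 6 had differences above 0 without passing the test (median 2.92). Myoepithelial markers summed to 351 FPKM in DMSO replicate 3 and to between 52.6 and 69.9 in the other 5 tumors. The part of these lists in the differences above was not tested. Ep300 was 10.1, 9.08 and 5.84 FPKM in DMSO and 11.3, 9.16 and 10.3 in C646 (log2 difference 0.33, interval -0.21 to 0.88). In the other lists, 0 genes were called. Medians were 0.05 over 22 other transcription factors, -0.21 over 11 junction genes and 1.37 over 10 milk genes. Over 5 tested genes of the hormone-sensing list the median was 0.08, and these differed in part from the genes tested in Tumor against Normal.

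**Figure D5:**
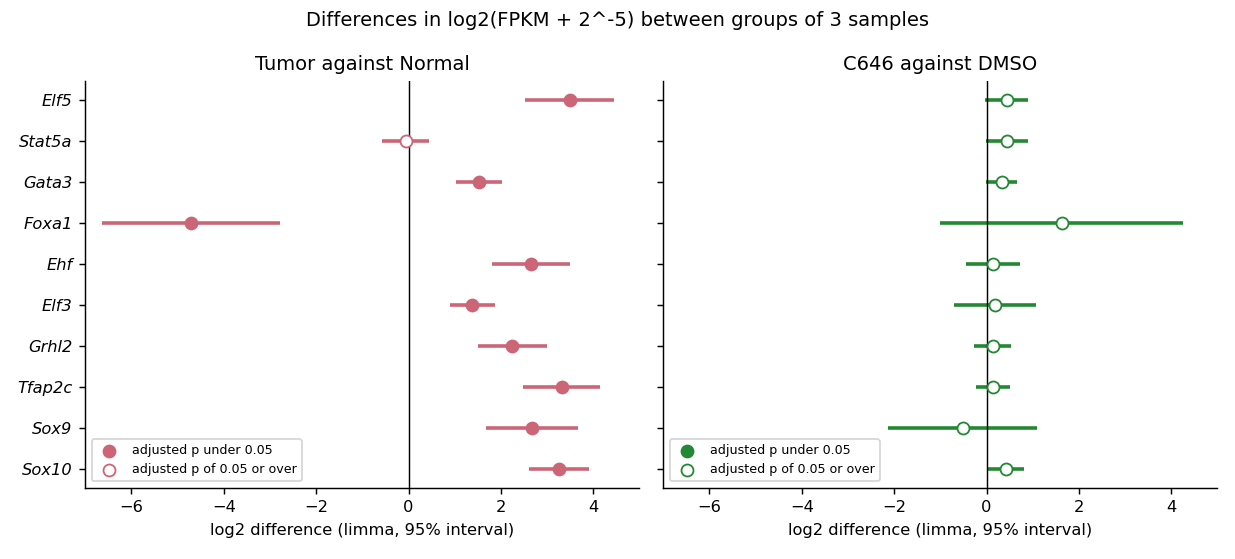
Log2 differences of the 10 transcription factors with 95% intervals from limma, Tumor against Normal (left) and C646 against DMSO (right). Filled points passed the test. On the left 8 genes are above 0 and Foxa1 is below it, and on the right no gene passed.

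Across the 4 groups, mean FPKM of Gata3, Elf5, Ehf, Elf3, Grhl2, Tfap2c, Sox9 and Sox10 was lowest in Normal, without overlap with the next group. The tables of the 2 experiments were made separately, so the order of Tumor against DMSO and C646 is a description. The untreated and the DMSO tumors overlapped for all factors but Ehf, which was 63.7 ± 4.59 FPKM (SD, n = 3) in Tumor and 128 ± 37.3 in DMSO. Foxa1 was lowest in Tumor (0.533 ± 0.602 FPKM), then DMSO (1.02 ± 1.49) and C646 (1.44 ± 0.412), which overlapped each other, and highest in Normal (9.55 ± 2.84). For Stat5a the means of DMSO (25.0 ± 5.08), Tumor (25.1 ± 6.97) and Normal (25.5 ± 0.667) overlapped, and C646 (33.8 ± 4.51) was the highest. In C646 tumors, Elf5 (274 ± 31.9 FPKM) and Sox10 (256 ± 25.0) had the highest levels of the 10, at ranks 254 and 278 among all genes, and Foxa1 the lowest.

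The factors were also compared in pattern with 13232 genes over all 12 samples, by the root mean square difference of log2 values after each gene was centered on its own mean, where 0 would be identical. Sox10 and Tfap2c were the closest to each other among the 10 factors (0.228), and both had Arhgap8 as their nearest gene (0.152 and 0.212). The nearest genes to Gata3 were Rin2, Ifnlr1 and Cx3cl1, at 0.136 to 0.182. Elf5 was nearest to Nhsl1 (0.279), Cenpk and Cml2, Elf3 to Plp2 (0.214), Marcksl1 and Asf1b, and Grhl2 to Ankrd13b (0.175), 2310030G06Rik and Plekhg6. For Ehf it was a row joining Mir1907 and Trps1 (0.228), ahead of Arhgef26 and Shroom3. After Arhgap8 came Irx5 and Muc20 for Tfap2c, and Prss16 and Prrg4 for Sox10. Stat5a was nearest to Tfap4 (0.156), Tyw3 and Inpp5k. Sox9 had looser neighbors in Gabrp (0.474), Nrg2 and Foxc1, and Foxa1 the loosest, in Cldn6 (0.797), Pm20d1 and Bmp3. All 12 samples and their tissue makeup are shared by these profiles.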

How the data were processed

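RNA-seq of 12 samples in 4 groups of 3 was analysed, with groups and replicate numbers taken from the sample titles. The authors trimmed adaptors, mapped reads to mm10 with TopHat2 2.1.1 and computed gene levels with Cufflinks 2.2.1 (per the submitters' processing notes), and deposited FPKM per gene and sample. Library size and transcript length are already divided out, depth in reads is not in the files, and no interval or floor for counting error was given.

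Rows without a gene name (1837 in each Normal and Tumor table) were dropped and FPKM was summed over repeated names. Rows joining several names were not assigned to a single gene. The experiments differ in their gene rows and were fitted separately with limma 3.58.1 in R 4.3.3 (lmFit, eBayes with trend) on log2(FPKM + 0.03125). Genes had to reach 1 FPKM in 3 or more of the 6 samples, and p-values were adjusted by Benjamini-Hochberg over every gene tested, with a threshold of 0.05. Fold changes are on this scale and understate changes of low genes. Levels relative to 8 epithelial genes were compared with two-sided exact permutation tests in Python 3.11.15 with scipy 1.17.1. The fit was tested on simulated data in which a small share of genes had known changes. With changes of 1 log2 unit, it recovered 26.0% of changed genes for Tumor against Normal and 26.5% for C646 against DMSO. With changes of 2 log2 units, these shares were 80.5% and 77.5%. At 1 log2 unit the simulated Tumor against Normal fit called 52 genes, whereas the real one called 3758 higher and 4128 lower. The adjustment is stricter where few genes change, so these shares do not give the sensitivity of the real Tumor against Normal comparison.

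The 10 factors and all gene lists were chosen with earlier results of these data known. All 10 were described in full. Of each other list, up to 4 genes per direction with the largest changes among those that passed the test without overlap were named, besides Stat5b, Grhl1, Grhl3, Tfap2a, Tfap2b and Ep300, and the 3 nearest profiles of each factor. Genes named beyond this rule (Prlr, Elf1, Elf2, Pgr, Ly6a, Krt19, Ms4a1, Cr2, S100b, Glycam1 and the overlapping caseins) were chosen after their values were seen. Replicate numbers did not pair the samples. The alternatives were other pseudocounts, no filter, median-ratio scaling, quantile normalization, no trend, a replicate block, the highest row of a repeated name, each sample left out, and other epithelial references. Promoter windows came from RefSeq and gene positions from GENCODE vM21. Positions in windows count from the transcript start, with -1 the base before it.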

Additional observations from a re-analysis of the deposited data

How the results depend on the processing

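For Tumor against Normal, 8 factors rose and 1 fell under all 14 alternatives. The log2 difference of Foxa1 ranged from -5.61 to -2.81, the latter with a pseudocount of 1. Leaving out each sample in turn moved the number of genes called lower from 2570 (without Normal replicate 3) to 4172, with 2686 without Normal replicate 2, and fewer genes passed the filter in those fits. The sign of Stat5a was not fixed, from -0.24 to 0.18 without single samples. Quantile normalization moved the median of all genes to 0.12 and the calls to 4348 higher and 3640 lower, and median-ratio scaling gave 3974 and 3974. The count of factors above the epithelial genes was 1 against Epcam alone and 5 against the median of the list, and for C646 against DMSO 2 and 3 (the cause was not tested).

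For C646 against DMSO, no factor was called under any alternative. Leaving out single samples gave 0 to 12 genes called lower (12 without DMSO replicate 2) and turned the sign of 4 factors, with ranges of -0.13 to 0.28 for Ehf, -0.23 to 0.53 for Elf3, -0.015 to 0.21 for Grhl2 and -1.17 to 0.32 for Sox9. Foxa1 fell under the filter without some single samples and then had no value.

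Same-numbered replicates did not deviate together, with correlations of deviations of -0.04, -0.10 and 0.01 for Normal and Tumor and 0.17, 0.07 and 0.11 for DMSO and C646. A fit with this number as a replicate block called 3439 genes higher and 3827 lower in Tumor, among them 8 factors higher and 1 lower, and 0 genes for C646 against DMSO.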
